A study of Rattus norvegicus with 6 samples.

Results

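The keratin genes of the rat were followed in corneas that had received an allograft. They were taken as every gene of the deposited count table whose symbol is Krt followed by a digit, which gave 46 of 17771 listed genes, 23 of type I, 22 of type II and Krt222, a keratin-like gene that is neither. Every cornea in the series came from a Wistar recipient of a Sprague-Dawley (SD) graft, so all libraries share the operation and the mismatch of strain. The tested recipients were given resveratrol, a plant polyphenol, by daily intraperitoneal injection, and the control recipients were given saline in the same way, up to day 7. RNA of whole cornea was sequenced in bulk from 3 resveratrol and 3 control libraries. No library is labelled as ungrafted cornea, the labels do not say how much of the graft and of the host rim was taken, and nothing in them ties each library to an animal of its own. A p-value here is therefore set by how far these 6 samples scatter, and part of that scatter may be technical.

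Keratins are the intermediate filament proteins of epithelial cells. A filament is built from pairs of an acidic type I and a basic type II keratin, and the pair that a cell makes follows its kind of epithelium and its state. In the cornea, the rodent epithelium pairs Krt12 with Krt5, basal and limbal cells make Krt14 with Krt5, wounded stratified epithelium makes Krt6a with Krt16 and Krt17, and the neighbouring conjunctiva makes Krt4, Krt13 and Krt19. Krt8 and Krt18 form the pair of simple epithelia, Krt1 and Krt10 that of the upper epidermis, and a large set of keratins belongs to the hair shaft and its root sheath.

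Levels of different genes are compared as FPKM, the authors' fragment values scaled to gene length and library depth. A single gene is compared between libraries as CPM, its counts scaled to library size with TMM factors, which rest on a trimmed mean of ratios over genes. Total gene counts were 35068936 to 37460756 per library. Of the 46 keratins, 27 passed the filter on low counts and were tested. The other 19 had 1 to 62 counts over all libraries together, and none of them reached more than 0.392 FPKM in a library.

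No keratin differed between resveratrol and control corneas by the test across all genes. The corneal pair Krt12 and Krt5 was at nearly the same level in both groups, at 35071 ± 2934 and 27074 ± 2906 CPM in resveratrol and at 34169 ± 1076 and 26472 ± 2236 CPM in control (SD, n = 3 each). The largest mean differences among keratins above 100 FPKM were lower levels in resveratrol of Krt7 (log2 fold change -0.78 ± 0.31, moderated standard error), of the wound keratin Krt17 (-0.59 ± 0.38) and of the conjunctival keratin Krt4 (-0.43 ± 0.31), and a single resveratrol library was the lowest for all of these. In edgeR's quasi-likelihood test with Benjamini-Hochberg adjustment over 14213 genes, 0 of 27 keratins passed an adjusted p of 0.05, where the share called among all genes was 0%, and the smallest adjusted p of a keratin was 0.210. DESeq2, run as an alternative, also called 0 of the 29 keratins that it gave an adjusted p, with a smallest value of 0.0924 for Krt7, where it called 6.6% of 15010 genes (2.13% higher and 4.46% lower in resveratrol). At an unadjusted p under 0.05 edgeR gave 2 keratins, 7.41% of those tested, both lower, against 19.6% of all genes (7.84% higher and 11.7% lower). For 3 keratins, 11.1%, every CPM value of one group lay beyond every value of the other (Krt18 higher, Krt7 and Krt76 lower), against 26.5% of all genes (12.2% higher and 14.4% lower).

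The promoters of the most abundant keratin of each type, Krt12 and Krt5, and of Krt4, an abundant keratin that varied more between libraries, are shown because these genes lie in 2 different keratin clusters and differ in how steady they were. The sequences are RefSeq's for the rat assembly GRCr8, 5′ to 3′ on the strand of the gene, and cover 250 bases before and 50 bases from the annotated start. They lie at chr10:84874216-84874515 for Krt12, chr7:134730520-134730819 for Krt5 and chr7:134930664-134930963 for Krt4, each on the minus strand. The submitters' processing notes name another build, mRatBN7.2, so these positions are not those of the counts. Capitals mark matches to TATAAA (the TATA box), CACCC (bound by factors of the KLF family), GCCNNNGGC (AP-2 factors) and TGANTCA (AP-1 factors), searched on both strands, and no match overlapped another.
Krt12: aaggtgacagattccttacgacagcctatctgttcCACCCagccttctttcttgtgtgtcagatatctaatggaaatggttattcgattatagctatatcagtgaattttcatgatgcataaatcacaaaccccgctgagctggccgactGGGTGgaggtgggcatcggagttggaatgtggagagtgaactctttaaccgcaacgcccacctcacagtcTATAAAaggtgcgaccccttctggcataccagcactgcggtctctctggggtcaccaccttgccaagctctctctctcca
Krt5: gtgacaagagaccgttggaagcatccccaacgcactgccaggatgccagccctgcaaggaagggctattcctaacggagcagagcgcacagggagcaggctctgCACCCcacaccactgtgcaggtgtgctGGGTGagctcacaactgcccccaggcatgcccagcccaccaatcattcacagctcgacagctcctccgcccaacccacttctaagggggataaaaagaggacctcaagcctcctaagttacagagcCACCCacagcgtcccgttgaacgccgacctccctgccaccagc
Krt4: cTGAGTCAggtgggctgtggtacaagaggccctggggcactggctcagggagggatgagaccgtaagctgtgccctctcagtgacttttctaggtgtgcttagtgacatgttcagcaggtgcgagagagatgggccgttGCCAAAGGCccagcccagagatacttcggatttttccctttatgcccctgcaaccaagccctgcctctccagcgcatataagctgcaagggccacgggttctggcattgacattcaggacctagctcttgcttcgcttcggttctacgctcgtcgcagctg

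The Krt12 promoter held TATAAA 30 bases before the start and CACCC on either strand, 215 and 100 bases before it. The Krt5 promoter held CACCC at 146 and 119 bases before the start and at 7 bases after it, and no TATAAA in those letters. The Krt4 promoter held TGANTCA at 249 and GCCNNNGGC at 111 bases before the start. Of 33469 rat promoters of the same length, 14.2% held TATAAA, 54.9% CACCC, 15.1% GCCNNNGGC and 7.33% TGANTCA. RefSeq's table had a promoter for 31 of the 46 keratins, of which 19 held TATAAA, 22 CACCC, 5 GCCNNNGGC and 2 TGANTCA. Keratins were counted by gene, with a match in any promoter of the gene. The percentages are per promoter, so the 2 are not in the same unit. These matches describe the letters only.

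Per length, Krt12 was the most abundant gene of all 17771, at a mean of 19296 FPKM over the 6 libraries, and Krt5 was second at 12817 FPKM. Krt14, the basal partner of Krt5, followed among the keratins at 8802 FPKM, then Krt13 at 4547 FPKM, Krt6a at 2100 FPKM and Krt17 at 2014 FPKM. The ranges over all 6 libraries did not overlap between Krt12, Krt5, Krt14, Krt13 and Krt6a as neighbours in this order, whereas Krt6a overlapped with Krt17, Krt17 with Krt4, Krt4 (920 FPKM) with Krt16 (665 FPKM), and Krt16 with Krt7 (656 FPKM). Krt80 at 495 FPKM and Krt15 at 427 FPKM closed the set of 11 keratins above 100 FPKM. The third conjunctival keratin, Krt19, stood far below Krt13 and Krt4, at 8.86 FPKM.

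**Figure D1:**
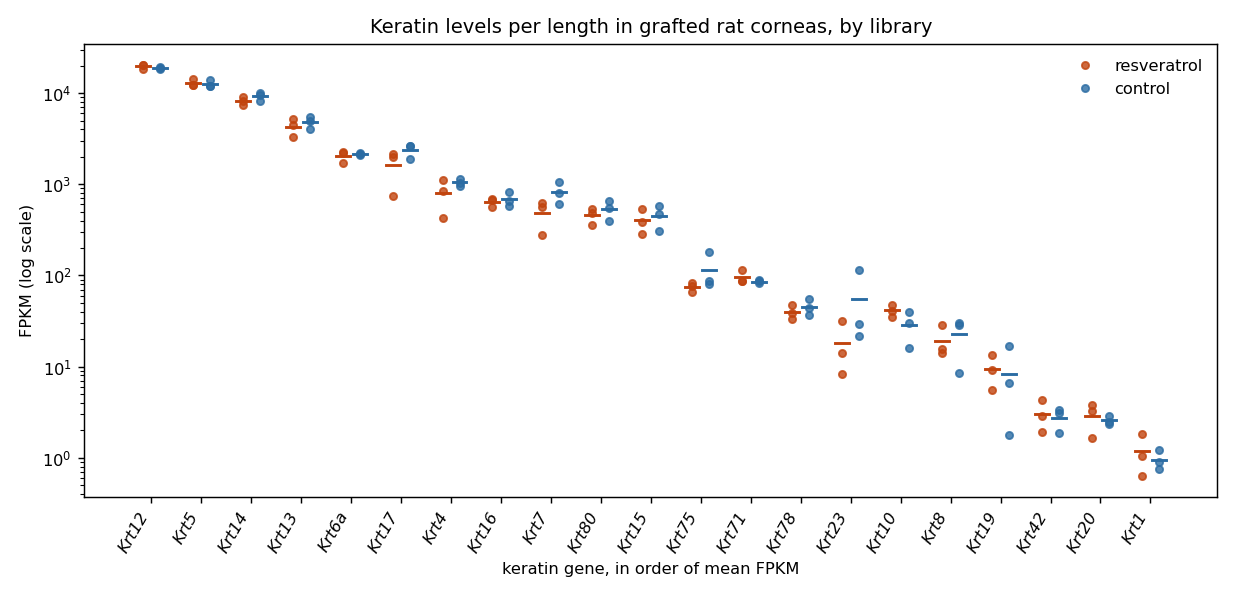
FPKM on a log axis for the 21 keratins with a mean of at least 1 FPKM, with 1 point per library and a bar at the group mean (3 resveratrol and 3 control libraries). Krt12 at 19296 and Krt5 at 12817 FPKM on average stand above all others, and the points of the groups overlap for every keratin shown.

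Keratins took 9.28% ± 0.240 of all gene counts in resveratrol and 9.55% ± 0.477 in control (SD, n = 3 each). The libraries were at 9.14%, 9.55% and 9.14% in resveratrol and at 10.01%, 9.06% and 9.58% in control, so the groups overlapped (exact permutation p = 0.6, two-sided; with 3 against 3 libraries such a test cannot go below 0.1). Krt12 and Krt5 together made 6.24% ± 0.413 of the counts in resveratrol and 6.03% ± 0.308 in control. Summed FPKM of type II keratins was 0.489 ± 0.0301 of that of type I keratins in resveratrol and 0.475 ± 0.0200 in control, and the 6 libraries lay between 0.452 and 0.523. Type I keratins thus exceeded type II keratins in every library.

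**Figure D2:**
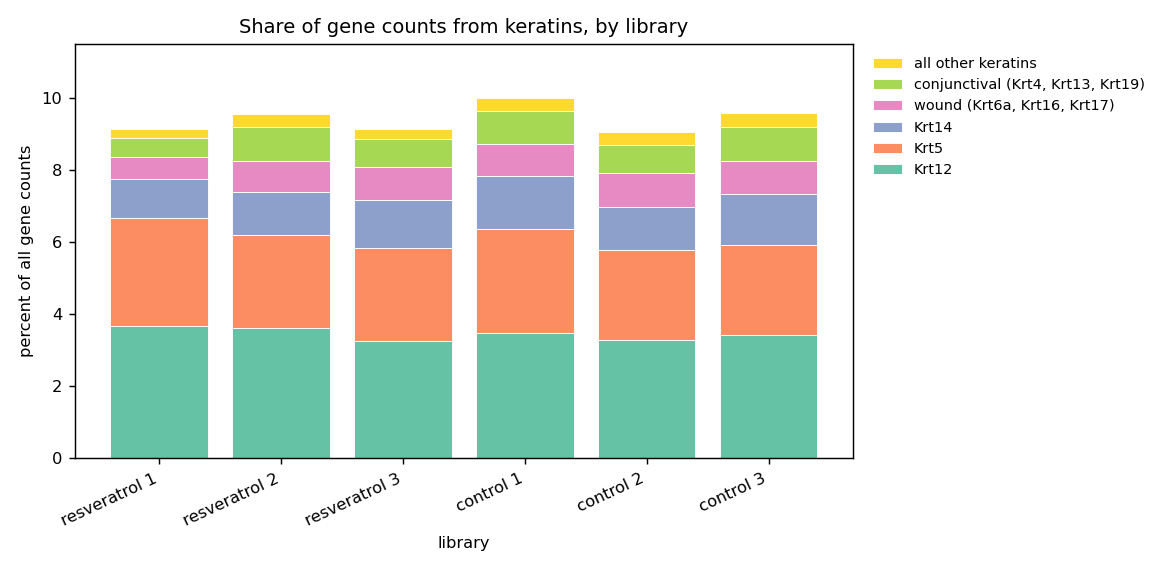
Percent of all gene counts that came from keratins in each library, stacked by Krt12, Krt5, Krt14, the wound and conjunctival sets and all other keratins. The whole bars reach 9.14% to 9.55% in resveratrol and 9.06% to 10.01% in control, and Krt12 with Krt5 fill most of every bar.

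The corneal keratins were the steadiest members. Krt12, which marks differentiated corneal epithelium, was at 37566, 35807 and 31838 CPM in the resveratrol libraries 1, 2 and 3 and at 35193, 33048 and 34266 CPM in the control libraries. The control values lay inside the range of the resveratrol values, and the highest of all 6 was 1.18 times the lowest. Its log2 fold change was 0.04 ± 0.26 (edgeR adjusted p = 0.892), with a moderated 95% interval of -0.58 to 0.64. That standard error is drawn toward the spread of other abundant genes, and from the 6 libraries of Krt12 alone it would be 0.076. Fold changes here are edgeR's, while standard errors and intervals come from a limma fit that has its own estimate (0.03 for Krt12). Krt5, the type II keratin of basal cells and the partner of Krt12 in rodents, was at 30421, 25609 and 25191 CPM in resveratrol and at 29049, 25054 and 25312 CPM in control. Replicate 1 was the highest of both groups, and the log2 fold change was 0.03 ± 0.24 (interval -0.54 to 0.60; edgeR adjusted p = 0.918).

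Non-keratin markers of corneal epithelium are given beside these levels, since in bulk tissue fewer cells of a type and less RNA per cell cannot be told apart. All 10 of them had higher means in resveratrol (median log2 fold change 0.10, against -0.01 over all genes). None passed in edgeR, and DESeq2 called 1 of the 10 higher, the secreted protein Slurp1 (adjusted p = 0.0336). DESeq2 called 2.13% of all genes higher. Their summed level was 9764 to 12466 FPKM in resveratrol and 9472 to 9990 FPKM in control. Aldh3a1, the abundant aldehyde dehydrogenase of corneal epithelium, averaged 7365 ± 933 FPKM in resveratrol and 6236 ± 375 FPKM in control. Scaling each library to the summed counts of these markers instead of TMM moved the median log2 fold change of all genes to -0.17. It moved Krt12 to -0.13 and Krt5 to -0.14. Such a scaling moves most genes by a similar amount, so nearness to that median was largely set beforehand and nothing is concluded from it. The summed counts of these markers rest mostly on Aldh3a1, which had 406947 to 529225 counts in resveratrol and 359392 to 422356 counts in control. No other of these markers exceeded 127446 counts in a library. Markers of other cells differed in mean with the group. Leukocyte markers had lower means in resveratrol in 8 of 8 and summed to 217 to 368 FPKM in resveratrol and 357 to 853 FPKM in control. Most of these sums came from Cd74 and Lyz2, and Lyz2 was the marker that DESeq2 did not call (adjusted p = 0.549). Keratocyte and fibroblast markers, also lower in mean in 8 of 8, summed to 3107 to 4205 FPKM in resveratrol and 4344 to 5360 FPKM in control, and blood vessel markers to 68.4 to 95.7 FPKM in resveratrol and 111 to 158 FPKM in control. DESeq2 called 7 of 8 leukocyte, 3 of 8 keratocyte and fibroblast and 4 of 6 blood vessel markers lower, against 4.46% of all genes, and edgeR called 0. The 3 keratocyte and fibroblast calls were the collagens Col1a1, Col1a2 and Col5a1, at log2 fold changes of -0.97, -0.91 and -0.90. Lum, Kera, Dcn, Pdgfra and Aldh1a1 of the same list lay between -0.26 and -0.015 and were not called. Corneal endothelium markers summed to 220 to 370 FPKM in resveratrol and 215 to 275 FPKM in control, with 4 of 6 lower in mean and 2 called lower by DESeq2. The list for meibomian and lacrimal gland summed to 913 to 1568 FPKM in resveratrol and 833 to 1137 FPKM in control, nearly all from Aqp5, a water channel that corneal epithelium also makes. Lens, iris and muscle markers were low in both groups, with no summed level above 10.9 FPKM. The part of these cells in the keratin values was not tested.

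Wound keratins had lower means in resveratrol in 3 of 3 members, and 0 of 3 passed in edgeR or DESeq2 (median log2 fold change -0.12). Krt6a, the type II keratin that stratified epithelium makes on injury, was at 3853, 4760 and 4815 CPM in resveratrol and at 4735, 4858 and 4566 CPM in control. Only resveratrol 1 lay below the control values, and the log2 fold change was -0.08 ± 0.14 (edgeR adjusted p = 0.748). Krt16, a type I partner of Krt6a in activated keratinocytes, was at 1293, 1532 and 1498 CPM in resveratrol and at 1887, 1300 and 1502 CPM in control. Control 1 was its highest library and the groups overlapped (-0.12 ± 0.15, edgeR adjusted p = 0.695).

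Krt17, the other type I keratin of wounded and of growing epithelium, spread most within this set. Its level was 912, 2396 and 2506 CPM in resveratrol and 2333, 3220 and 3212 CPM in control. Resveratrol 1 lay at less than any other library by a wide margin, while resveratrol 2 and 3 were slightly above control 1. The log2 fold change was -0.59 ± 0.38 (edgeR adjusted p = 0.395, DESeq2 adjusted p = 0.318). The interval of -1.60 to 0.17 belongs to limma's own estimate of -0.71. Without resveratrol 1 edgeR's fold change was -0.25 (edgeR adjusted p = 0.490). The labels of replicate 1 in both groups end in Sep and those of the other 4 libraries in Oct, with no stated meaning, and in the Oct libraries alone Krt17 differed by -0.39 (edgeR adjusted p = 0.263).

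Conjunctival keratins had lower means in 2 of 3 members, and 0 of 3 passed in edgeR or DESeq2 (median log2 fold change -0.18). Krt13, a type I keratin of moist stratified epithelia, was at 4452, 6725 and 5687 CPM in resveratrol and at 6505, 5374 and 7168 CPM in control. The lowest value was resveratrol 1, the groups overlapped, and the log2 fold change was -0.18 ± 0.20 (edgeR adjusted p = 0.616). It was -0.025 without resveratrol 1, -0.32 without resveratrol 2 and -0.012 among the Oct libraries. Krt4, its type II partner, was at 988, 2476 and 1843 CPM in resveratrol and at 2613, 2358 and 2159 CPM in control. Resveratrol 2 lay between the control libraries and resveratrol 1 was the lowest, so the log2 fold change of -0.43 ± 0.31 (edgeR adjusted p = 0.456) shrank to -0.13 once resveratrol 1 was left out. Among the Oct libraries it was -0.06. Krt19, a small type I keratin of conjunctiva and simple epithelia, was at 7.81, 18.2 and 12.3 CPM in resveratrol and at 2.5, 9.17 and 23.2 CPM in control. Both the lowest and the highest of its 6 values were control libraries. The log2 fold change was 0.13 ± 0.73 (edgeR adjusted p = 0.936), and limma's own estimate was 0.56.

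The 7 listed markers of goblet cells, the mucus cells of conjunctiva, summed to 0.769 to 1.29 FPKM in resveratrol and 0.708 to 1.46 FPKM in control, nearly all from Spdef. The mucin Muc5ac had 1, 3 and 1 counts in resveratrol and 30, 3 and 0 counts in control. Muc5b, another mucin, had 2, 0 and 0 counts in resveratrol and 28, 0 and 0 counts in control, so control 1 stood apart for both. The part of conjunctival tissue in the levels of Krt13, Krt4 and Krt19 was not tested.

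**Figure D3:**
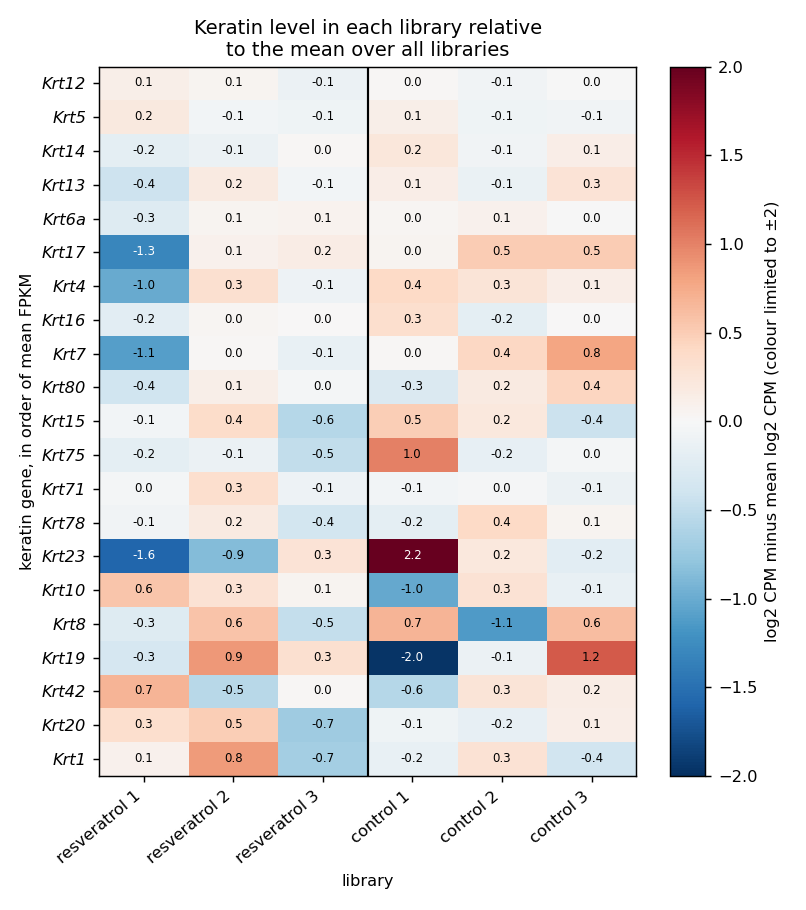
Level of each keratin with a mean of at least 1 FPKM in each library (resveratrol left of the line, control right of it), as log2 CPM minus the mean of that gene over the 6 libraries. Resveratrol 1 is low for Krt23, Krt17, Krt4 and Krt7. Control 1 is high for Krt23 and Krt75 and low for Krt10 and Krt19, while Krt12 and Krt5 stay near 0 in every library.

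The basal keratins were lower on average in resveratrol without passing. Krt14 was at 11116, 11794 and 12993 CPM in resveratrol and at 14887, 12158 and 14059 CPM in control, a log2 fold change of -0.20 ± 0.19 (edgeR adjusted p = 0.428), and the groups overlapped only between resveratrol 3 and control 2. It was -0.13 without control 1 and -0.079 among the Oct libraries. Krt15, a keratin of basal and limbal cells that is linked with progenitors, was at 656, 881 and 458 CPM in resveratrol and at 962, 789 and 506 CPM in control (-0.18 ± 0.29, edgeR adjusted p = 0.765). Its lowest library in each group was replicate 3.

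Among the keratins of simple epithelia, Krt7 came nearest to a call. It was at 431, 939 and 840 CPM in resveratrol and at 943, 1238 and 1611 CPM in control. Every resveratrol value lay below every control value in CPM, though resveratrol 2 and control 1 were almost level, and in FPKM, with its other scaling, resveratrol 2 at 621 FPKM passed control 1 at 613 FPKM. The log2 fold change was -0.78 ± 0.31 (moderated 95% interval -1.56 to -0.09; edgeR adjusted p = 0.230, DESeq2 adjusted p = 0.0924), and it was -0.68 among the Oct libraries and -0.50 without resveratrol 1. Without resveratrol 2 or without control 1, DESeq2 called Krt7 (adjusted p = 0.0491 and 0.0460), and edgeR did not under any alternative. Krt8 was at 35, 62.6 and 30.2 CPM in resveratrol and at 67.4, 19.2 and 64.2 CPM in control, where control 2 was its lowest library (-0.24 ± 0.50, edgeR adjusted p = 0.811). Krt20, known from intestine and urothelium, was at 4.29 ± 1.69 CPM in resveratrol and 3.83 ± 0.410 CPM in control.

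Krt18, the partner of Krt8, was barely counted. It had 59, 50 and 53 counts in resveratrol and 21, 40 and 43 counts in control, or 1.06 ± 0.0843 FPKM in resveratrol and 0.689 ± 0.219 FPKM in control. The groups did not overlap, and the log2 fold change was 0.61 ± 0.32 (edgeR adjusted p = 0.349; 0.29 among the Oct libraries). Over the libraries Krt8 stood 10.9 to 69.0 times above Krt18 in FPKM. RefSeq's rat table lists 6 Krt18 pseudogenes and 1 of Krt8, and no source at hand says how reads that match several genes were treated, so the level of Krt18 is uncertain. Krt6a, though well counted, is open to the same doubt about reads, since the table lists 2 Krt6a pseudogenes and gives Krt6a also as a synonym of Krt6c. The table likewise gives Krt14 as a synonym of Krt16. The effect of these names on the counts was not tested.

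Of the epidermal and stratified keratins, Krt80, a type II keratin of many stratified epithelia, was the most abundant, at 619 ± 108 CPM in resveratrol and 726 ± 174 CPM in control (-0.23 ± 0.20, edgeR adjusted p = 0.556). With 1 library left out it ran between -0.40, without control 1, and -0.059, without control 3. Krt78 was at 128 ± 23.9 CPM in resveratrol and 145 ± 30.4 CPM in control. Krt10, a keratin of the upper epidermis, was at 106, 88.2 and 75.0 CPM in resveratrol and at 35.5, 88.0 and 65.4 CPM in control, where control 1 was the lowest (0.51 ± 0.31, edgeR adjusted p = 0.386; 0.09 in the Oct libraries alone). Krt1, its type II partner, was far lower, at 2.81 ± 1.47 CPM in resveratrol and 2.31 ± 0.573 CPM in control. Krt42 averaged 24.7 ± 10.4 CPM in resveratrol and 22.3 ± 6.31 CPM in control.

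Krt23, a type I keratin with a variable pattern in epithelia, had the widest spread of all keratins above 1 FPKM. It was at 10.8, 17.6 and 39.3 CPM in resveratrol and at 145, 37.4 and 27.9 CPM in control. Control 1 alone was high, resveratrol 3 exceeded the other control libraries, and the highest value was 13.5 times the lowest. The log2 fold change of -1.64 ± 0.67 (edgeR adjusted p = 0.259, DESeq2 adjusted p = 0.286) was -0.53 without control 1 and -0.20 in the Oct libraries alone. Krt76, a keratin of oral epithelium, did not overlap between the groups but was close to the counting limit. It had 4, 16 and 6 counts in resveratrol and 37, 20 and 20 counts in control (-1.60 ± 0.53, edgeR adjusted p = 0.210, DESeq2 adjusted p = 0.173), and its highest library was again control 1. Among the Oct libraries the log2 fold change was -0.87.

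Control 1 was also the library with the highest summed leukocyte markers, at 853 FPKM against 466 and 357 FPKM in control 2 and 3, and with the highest blood vessel markers, at 158 FPKM. Of the leukocyte sum Cd74 made 389 FPKM and Lyz2 377 FPKM in control 1, and 95.5 and 85.2 FPKM in resveratrol 1. Resveratrol 1, which was the lowest library for 12 of the 27 tested keratins and the highest for Krt12, Krt5, Krt10, Krt42 and Krt18, had the highest summed non-keratin epithelial markers, at 12466 FPKM, and the lowest leukocyte markers, at 217 FPKM. Control 1 was the highest for 8 keratins and the lowest for 4. The part of these cell markers in the spread of the keratins was not tested.

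A few hair keratins were well counted and many were close to 0 counts. Krt75, known from the companion layer of the hair follicle, was at 264, 277 and 214 CPM in resveratrol and at 609, 270 and 293 CPM in control. Control 1 stood apart, and the log2 fold change of -0.64 ± 0.29 (edgeR adjusted p = 0.301) was -0.16 without it. Krt71, a keratin of the inner root sheath, was at 280, 360 and 268 CPM in resveratrol and at 275, 283 and 263 CPM in control (0.15 ± 0.12, edgeR adjusted p = 0.535). These levels, 75.4 ± 9.06 FPKM for Krt75 and 96.0 ± 16.1 FPKM for Krt71 in resveratrol and 116 ± 55.9 and 85.7 ± 3.10 FPKM in control, stood in tissue where no listed marker of hair follicle and skin averaged 1 FPKM over the libraries (summed level 1.21 to 1.67 FPKM in resveratrol and 1.37 to 1.69 FPKM in control). Krt71 is the neighbour of Krt5 in the RefSeq gene order, with Krt6a on the other side of Krt5. The hair shaft keratins Krt33a, Krt84 and Krt36 averaged under 1 FPKM over all libraries, had lower means in resveratrol, and did not pass. Of the remaining keratins of hair shaft and root sheath none passed the filter.

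**Figure D4:**
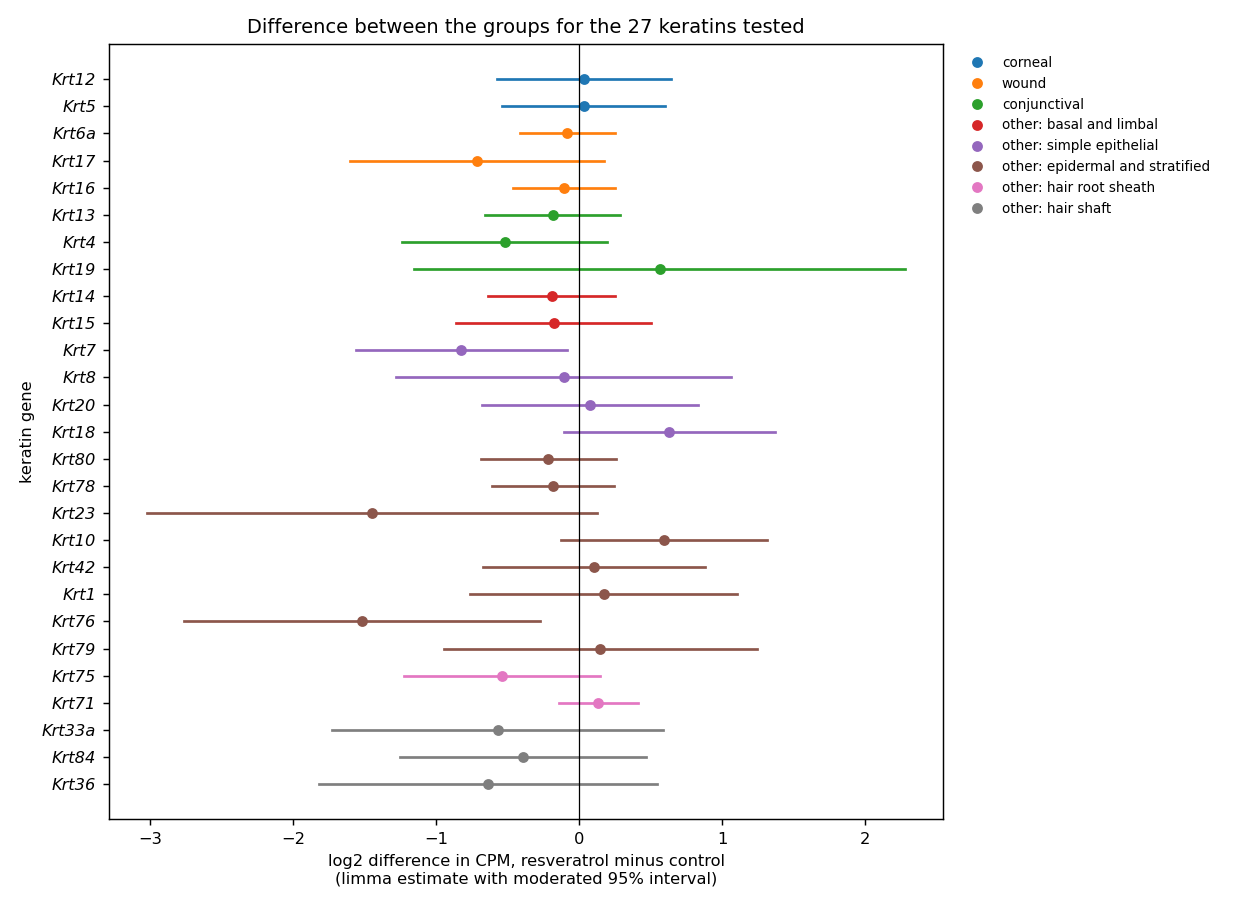
Log2 difference in CPM, resveratrol minus control, for the 27 tested keratins by set, as limma's estimate with its moderated 95% interval. The intervals of Krt7 (-1.56 to -0.09) and Krt76 (-2.76 to -0.28) lie below 0 before any adjustment for the number of genes, and all others include 0.

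Filament pairs were compared within each library, where the scaling of libraries plays no part. The log2 ratio of Krt5 to Krt12 in FPKM was -0.52, -0.70 and -0.56 in resveratrol and -0.50, -0.62 and -0.66 in control, the narrowest of the 8 pairs over both groups. Krt5 over Krt14 was 0.93, 0.60 and 0.44 in resveratrol and 0.45, 0.53 and 0.33 in control. Krt6a over Krt16 averaged 1.68 ± 0.0547 in resveratrol and 1.66 ± 0.287 in control. Krt6a over Krt17 was 1.22 in resveratrol 1, 0.13 and 0.083 in resveratrol 2 and 3, and 0.16, -0.27 and -0.35 in control. Krt4 over Krt13 averaged -2.52 ± 0.380 in resveratrol and -2.19 ± 0.284 in control, so Krt13 exceeded its partner in all 6 libraries. Over the 8 pairs the groups overlapped each time, with exact permutation p-values, two-sided, of 0.3 to 1 and adjusted values of 0.8 to 1, in a design that cannot go below 0.1.

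**Figure D5:**
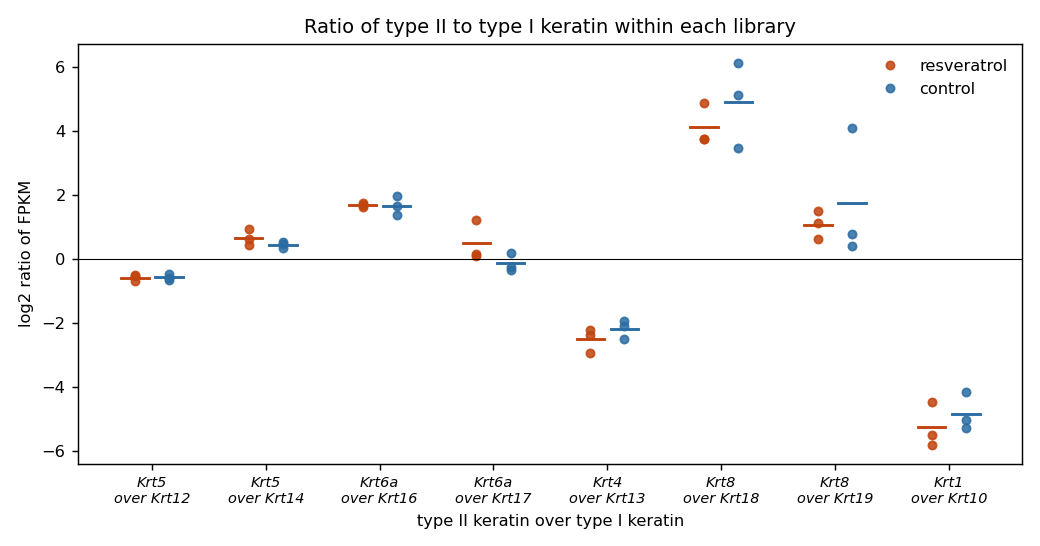
Log2 ratio of FPKM of a type II keratin over its type I partner, with 1 point per library and a bar at the group mean (3 resveratrol and 3 control libraries). The groups overlap for all 8 pairs, Krt5 over Krt12 is the tightest, and resveratrol 1 is the lone high point of Krt6a over Krt17.

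Of 13 genes of desmosomes and plakins, which tie keratin to cell junctions, means were higher in resveratrol for 10 and lower for 3, with a median log2 fold change of 0.11. None of the 13 passed in edgeR, and 2 were called higher by DESeq2, where it called 2.13% of all genes higher. Those 2 were desmosomal cadherins. They were also the 2 of 13 whose groups did not overlap in CPM, against 26.5% of all genes (12.2% higher). They were Dsg3, at 332 ± 14.5 FPKM in resveratrol and 268 ± 15.4 FPKM in control (edgeR adjusted p = 0.166, DESeq2 adjusted p = 0.0248), and Dsg2, at 26.2 ± 2.07 FPKM in resveratrol and 20.1 ± 1.5 FPKM in control (edgeR adjusted p = 0.127, DESeq2 adjusted p = 0.0149). The plakin Dsp, which binds keratin directly, was at 882 ± 91.2 FPKM in resveratrol and 754 ± 107 FPKM in control, and the junction protein Jup at 871 ± 18.4 FPKM in resveratrol and 874 ± 42.3 FPKM in control.

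Of 9 tested genes of keratin assembly and turnover, 0 passed in edgeR or DESeq2. Hspb1, a small heat shock protein that associates with keratin filaments, was at 357 ± 29.2 FPKM in resveratrol and 425 ± 30.2 FPKM in control (-0.27 ± 0.085, edgeR adjusted p = 0.176, DESeq2 adjusted p = 0.135). It was the 1 of 9 whose groups did not overlap in CPM, against 26.5% of all genes (14.4% lower). Fam83h, which organises keratin filaments, was at 93.7 ± 14.7 FPKM in resveratrol and 94.5 ± 7.57 FPKM in control, and the crosslinking enzyme Tgm1 at 73.3 ± 18.1 FPKM in resveratrol and 82.4 ± 23.1 FPKM in control. Of 13 transcription factors that act on keratin genes or on epithelial identity, 0 passed in edgeR or DESeq2. Elf3 was at 446 ± 32.2 FPKM in resveratrol and 502 ± 76.6 FPKM in control, and Klf4, a KLF factor of the corneal surface, at 302 ± 18.1 FPKM in resveratrol and 261 ± 15.6 FPKM in control (0.20 ± 0.093, edgeR adjusted p = 0.295). Tp63, which keeps basal epithelial cells, was at 48.1, 30.8 and 33.3 FPKM in resveratrol and at 27.7, 29.6 and 27.1 FPKM in control (edgeR adjusted p = 0.266), with resveratrol 1 well above all others. Klf4, Tp63 and Sp1 were the 3 of 13 whose groups did not overlap in CPM, against 26.5% of all genes in either direction. All 3 were higher in resveratrol, where 12.2% of all genes were higher without overlap. Grhl1 was at 56.6 ± 5.19 FPKM in resveratrol and 46.5 ± 5.32 FPKM in control (edgeR adjusted p = 0.260).

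Over the 27 tested keratins the median log2 fold change was -0.18, against -0.01 over all genes tested, with 10 higher and 17 lower means. A keratin that passed the filter through a group where it was high would add to such a count, so these figures describe the tested members only. By set the medians were 0.03 for the corneal, -0.12 for the wound and -0.18 for the conjunctival keratins and -0.20 for the 19 tested others. Of the 19 keratins outside the main test, 15 were at 0 counts in at least 1 library. There 0 counts allow up to 3 counts, or 0.0790 to 0.0862 CPM. The other 4 had at least 1 count in every library and 62 counts or fewer in all. Counts this low limit what could be detected in the 19 at this depth. With the filter lifted, edgeR called 0 keratins. DESeq2 gave an adjusted p to 2 of the 19, 0.846 for Krt32 (62 counts over the 6 libraries) and 0.983 for Krt33b (27 counts).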

How the data were processed

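Whole-cornea RNA was read as 150 bp pairs, per the labels' protocols. The authors deposited a table of unnormalized counts per gene (whole numbers, 17771 genes) and FPKM values of those genes, which the authors had scaled to length and depth. FPKM in the single-library files equalled the FPKM table for 6 of 6 libraries. Build mRatBN7.2, R 3.2.0 and DESeq2 are listed in the submitters' processing notes; aligner, counter and strand setting are not given there. No 2 libraries were alike within counting noise (chi-square per degree of freedom, lowest pair 31.4, highest 92.7).

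Genes were kept by filterByExpr (14213 genes, the rest holding 0.0237% of counts), scaled by TMM and put to the quasi-likelihood test of edgeR 4.0.16 (group as the only term, R 4.3.3), adjusted by Benjamini-Hochberg over those genes, at 0.05. Log2 fold changes are edgeR's unless said otherwise. Standard errors and 95% intervals are limma's (3.58.1, trend, prior count 2) and are moderated across genes. They belong to limma's own estimates, which for some keratins differed from edgeR's. Limma's estimate was -0.71 for Krt17, 0.56 for Krt19, -0.11 for Krt8 and -1.45 for Krt23. DESeq2 1.42.0 ran at its defaults. The tests were tried on simulated counts. Keratins, lists and the rule for named genes were chosen with earlier results of these data known. By that rule the corneal, wound and conjunctival keratins are named, then the 12 others highest in FPKM and up to 5 per direction by p-value, and per partner list 2 genes by level and 2 by p-value. Krt33a, Krt33b, Krt32, Krt84, Krt36 and Krt222, Sp1, and the markers Aldh3a1, Slurp1, Aqp5, Spdef, Muc5ac, Muc5b, Cd74 and Lyz2, fall outside it and were chosen after their values were seen. The same holds for the keratocyte and fibroblast markers given by name. Alternatives changed scaling, filter, test, replicate block, the Sep or Oct label ending, the unit (log2 FPKM plus 1 or 0.1), the threshold (0.1, 0.01) and the libraries used; DESeq2 with libraries left out was added after seeing the data.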

Additional observations from a re-analysis of the deposited data

How the results depend on the processing

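The number of keratins past the threshold was 0 in all edgeR and limma alternatives and in DESeq2 with all libraries. It was 0 to 1 in DESeq2 with a library left out, where Krt7 was called without resveratrol 2 and without control 1. Over all genes edgeR called 0 with all libraries (2782 at an unadjusted p under 0.05), 17 when scaled to the non-keratin epithelial markers, and 0 to 21 with a library left out (1 without resveratrol 2, 21 without control 3). DESeq2 called 990 genes with all libraries, 530 without resveratrol 1, 642 without resveratrol 2, 817 without resveratrol 3, 623 without control 1, 390 without control 2 and 1027 without control 3. Adjusted p thresholds of 0.1 and 0.01 also gave 0 genes in edgeR. Of 620 values of named keratins under alternatives, 577 kept their direction and their side of the threshold, 2 newly passed (Krt7) and 41 changed sign without passing. Of these 41, 35 came from other settings and 6 arose by scaling to the epithelial markers. That scaling moved the median of all genes by -0.16, though not every gene by the same amount. With the shift of the median taken out, 0 of the 6 remained. Small values that cross 0 by such a shift mostly return when it is removed, so no conclusion is drawn from this. The scaling gave -0.13 for Krt12, -0.14 for Krt5, -0.021 for Krt19, -0.014 for Krt71, -0.049 for Krt42 and -0.036 for Krt20. The Oct libraries alone gave 0.026 for Krt6a, 0.12 for Krt16, -0.085 for Krt19, 0.052 for Krt15, 0.16 for Krt8 and -0.44 for Krt42. With a library left out, edgeR's log2 fold changes ran over -0.0066 to 0.11 for Krt12, -0.052 to 0.11 for Krt5, -0.12 to 0.028 for Krt6a, -0.23 to 0.044 for Krt16, -0.34 to 1.13 for Krt19, -0.43 to 0.044 for Krt15, -0.63 to 0.035 for Krt8, -0.22 to 0.40 for Krt42, -0.065 to 0.46 for Krt20 and -0.19 to 0.60 for Krt1. With no change of sign they ran over -0.27 to -0.13 for Krt14, -0.32 to -0.025 for Krt13, -0.81 to -0.25 for Krt17, -0.75 to -0.13 for Krt4, -0.99 to -0.50 for Krt7, -0.40 to -0.059 for Krt80, -0.84 to -0.16 for Krt75, 0.0037 to 0.24 for Krt71, -0.33 to -0.013 for Krt78, -2.29 to -0.53 for Krt23, 0.23 to 0.83 for Krt10, 0.37 to 0.77 for Krt18 and -2.38 to -1.20 for Krt76. Without resveratrol 1 DESeq2 gave -0.038 for Krt5, 0.042 for Krt6a and -0.20 for Krt42. Without control 1 DESeq2 gave 0.051 for Krt16, -0.33 for Krt19, 0.049 for Krt15, 0.040 for Krt8 and -0.061 for Krt42. Without resveratrol 2 DESeq2 gave -0.20 for Krt19, -0.054 for Krt20 and -0.18 for Krt1. Without control 2 DESeq2 gave -0.0015 for Krt19 and 0.0014 for Krt78. Without resveratrol 3 DESeq2 gave 0.043 for Krt15. The causes were not tested. Same-numbered libraries did not deviate together (correlations across genes of -0.0044, -0.012 and -0.023), so the numbers are not taken to pair them. The replicate block gave 0 keratins and 0 genes past the threshold. With 3 libraries a group, the moderated interval of Krt12 still spans -0.58 to 0.64.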
